A study of Mus musculus with 47 samples.

Results

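Zfhx2, Zfhx3, Zfhx4, Ebf1, Ebf2, Ebf3 and Ebf4 are the 7 mouse genes of the ZFHX and EBF transcription factor families described here. They were picked by name after Zfhx4 and Ebf3 had been seen to rise most on loss of EED, and all 7 of them were present among the 53402 genes listed in both count tables and passed the filter on low counts in both. Bulk RNA-seq was done on medullary thymic epithelial cells (mTECs) of C57BL/6 mice, sorted as DAPI-CD45-EpCAM+Ly51- cells with high (mTEChi) or low (mTEClo) surface MHC class II. In adults of 4 to 6 weeks the groups were WT and AireKO, with 7 and 4 mTEChi and 8 and 4 mTEClo libraries. In neonates of 1 to 6 days the mTEChi groups were Ctrl with 5 libraries and EEDcKO, AireKO and AireEEDdKO with 3 each, and the mTEClo groups were Ctrl with 3, EEDcKO with 4 and AireEEDdKO with 3. EEDcKO mice carried floxed Eed alleles and a Cre transgene driven by Foxn1, a gene active in thymic epithelium at large, so deletion was not limited to mTECs. AireEEDdKO mice lacked Aire in addition, and AireKO mice lacked Aire alone. The genotype behind the name Ctrl is not given by the labels. Neonatal AireKO and AireEEDdKO mice were 4 to 6 days old and those of mTEClo Ctrl 1 to 3 days, so age moved in part with genotype. Some neonatal libraries pooled male and female animals, and all adult AireKO libraries were from males, while WT had both sexes.

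ZFHX proteins are very large transcription factors that combine several homeodomains with many zinc fingers. Zfhx3 is known from neuronal differentiation and circadian timing, Zfhx4 from neural and craniofacial development and Zfhx2 from sensory neurons. EBF proteins bind DNA as dimers through a conserved zinc-containing domain. Ebf1 is required for B cell development and is also active in stromal and fat cells, Ebf2 marks brown fat precursors and bone and neural lineages, Ebf3 is a neuronal factor of the same family, and Ebf4 is its most divergent member. EED is the subunit of Polycomb repressive complex 2 that reads trimethylated lysine 27 of histone H3, the mark that this complex deposits, and the complex is known to keep many developmental transcription factor genes silent. Aire is the nuclear factor by which mTECs transcribe tissue-restricted genes.

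The members differed widely in gene structure on the GRCm38 annotation. Zfhx3 spanned 1018.987 kb of chromosome 8 (107942644 to 108961630, plus strand), Zfhx4 197.332 kb of chromosome 3 (5218526 to 5415857, plus strand) and Zfhx2 32.063 kb of chromosome 14 (55060262 to 55092324, minus strand). Ebf1 lay on chromosome 11 (44617317 to 45008091, plus strand), Ebf2 on chromosome 14 (67233292 to 67430918, plus strand), Ebf3 on chromosome 7 (137193673 to 137314445, minus strand) and Ebf4 on chromosome 2 (130295169 to 130370481, plus strand). Merged exon length ran from 3.236 kb for Ebf4 to 20.976 kb for Zfhx3. Reads were counted without regard to strand, so reads of antisense genes cannot be told from a member's own. Annotated antisense genes covered 17.9% of the exon bases of Zfhx2, 6.12% of those of Ebf2 and 3.85% of those of Ebf3. These shares do not measure how far the values of these 3 genes were affected, which was not tested.

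Promoter windows of 250 bases before and 50 bases after the transcription start were taken from RefSeq (GRCm38.p6), where 5 of the 7 members matched with 6 entries. CpG dinucleotides, a C followed by a G on the same strand, which cluster in CpG islands, are in capitals. The windows of Ebf3 and Ebf4 are shown because these genes had the most CpG-rich starts among the matched members, and 1 Ebf1 window is shown beside them as the poorest. Coordinates are chr7:137314396-137314695 on the minus strand for Ebf3, chr2:130295689-130295988 on the plus strand for Ebf4 and chr11:44617850-44618149 on the plus strand for Ebf1.
Ebf3: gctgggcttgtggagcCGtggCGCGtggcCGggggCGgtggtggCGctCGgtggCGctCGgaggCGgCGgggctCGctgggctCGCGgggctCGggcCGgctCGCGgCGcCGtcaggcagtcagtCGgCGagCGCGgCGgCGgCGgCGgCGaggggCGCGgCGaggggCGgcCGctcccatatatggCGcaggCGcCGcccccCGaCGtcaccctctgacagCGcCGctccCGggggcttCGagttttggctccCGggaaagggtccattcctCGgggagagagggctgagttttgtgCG
Ebf4: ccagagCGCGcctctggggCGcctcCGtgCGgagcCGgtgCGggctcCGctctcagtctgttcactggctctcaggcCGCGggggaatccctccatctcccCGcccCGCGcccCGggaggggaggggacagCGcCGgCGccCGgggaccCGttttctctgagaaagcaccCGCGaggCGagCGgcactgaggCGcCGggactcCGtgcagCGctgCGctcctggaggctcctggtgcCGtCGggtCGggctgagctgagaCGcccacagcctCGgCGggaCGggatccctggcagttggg
Ebf1: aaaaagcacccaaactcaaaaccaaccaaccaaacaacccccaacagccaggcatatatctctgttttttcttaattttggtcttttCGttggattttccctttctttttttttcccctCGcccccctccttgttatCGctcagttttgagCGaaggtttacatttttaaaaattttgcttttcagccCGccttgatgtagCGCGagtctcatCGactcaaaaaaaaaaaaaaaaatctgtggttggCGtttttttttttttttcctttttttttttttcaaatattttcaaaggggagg
The Ebf3 window held 46 CpG dinucleotides and the Ebf4 window 35, against 9 in this Ebf1 window and 17 in the other. Zfhx3 had 21 and Zfhx2 had 20. Over all 32851 windows of this length the median was 7 and the 90th percentile 31, so that both Ebf3 and Ebf4 lay above the 90th percentile. The EBF motif, TCCC and GGGA with any 2 bases between, was searched on both strands without regard to overlap with other motifs and was in 0.904% of all windows, and the homeodomain core TAATTA was in 5.29%. Neither string occurred in the 6 windows of the members. No protein sequence was used here.

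Levels are given as CPM, the count relative to library size after TMM scaling, on libraries of 1578579 to 4817418 counts, and p-values were adjusted over all 19310 genes tested in adults or 20196 in neonates. A gene was called when the adjusted p of edgeR's quasi-likelihood test was under 0.05 and the change at least 2-fold. The targeted genes followed the labels. Eed averaged 14.8 CPM in neonatal mTEChi EEDcKO and 13.6 in AireEEDdKO, against 29.1 in Ctrl and 39.5 in AireKO. In mTEClo it averaged 15.2 CPM in both EED-deleted groups against 24.2 in Ctrl, a log2 difference of -0.67, under 2-fold. Aire averaged 29.3 CPM in adult mTEChi AireKO against 818 in WT, and 70.6 in neonatal AireKO against 619 in Ctrl. Of 10 mTEC markers, 9 or 10 were detected in every library. All 37 mitochondrial genes had 0 counts in 6 adult libraries, namely all 4 of mTEChi AireKO and 2 of the 4 of mTEClo AireKO. In adult mTEChi the genotype and this property of the libraries cannot be told apart. The labels do not say which libraries came from separate animals, so p-values measure the spread between libraries. In bulk RNA, fewer cells of a type and less RNA per cell cannot be told apart.

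Zfhx4, 1 of the 2 genes whose rise on EED loss led to the choice of members, also showed the largest change of them in mTEChi. The test of EED loss used mTEChi AireEEDdKO against AireKO, whose libraries entered neither comparison of EEDcKO with Ctrl. It is still a comparison of EED loss, the ground on which Zfhx4 and Ebf3 were chosen. The p-values of Zfhx4 and Ebf3 here are therefore not free of that choice. Zfhx4 stood at 3.43, 3.44 and 3.67 CPM in the 3 AireKO libraries and at 102, 88.4 and 101 CPM in the 3 AireEEDdKO libraries. The groups lay far apart and the spread within each was narrow. Zfhx4 rose 27.1-fold (log2 fold change 4.76, SE 0.24, edgeR adjusted p = 9.83e-12). In all, 4 of the 7 members rose and passed the threshold in this comparison (Zfhx4, Ebf1, Ebf3 and Ebf4), where 6.69% of all tested genes did. Of the 7, 6 were higher without overlap between the groups, against 18.9% of all genes. By the adjusted p alone 5 members passed, and 16.8% of all genes did. The median log2 change was 1.02 over the members and 0.034 over all genes tested. Zfhx4 and Ebf3 had been chosen for a rise on EED loss, so the counts and median over all 7 members include that choice. Of the other 5 members, 2 were called and 3 passed the adjusted p alone.

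The remaining ZFHX genes were more abundant than Zfhx4 in AireKO and differed less. Zfhx3 was at 302, 261 and 281 CPM in AireKO and at 555, 405 and 512 CPM in AireEEDdKO. The difference of 1.74-fold (log2 0.80, SE 0.16, edgeR adjusted p = 0.00143) exceeded the spread between libraries and stayed under the 2-fold limit of a call. Zfhx2 was at 20.6, 15.8 and 20.3 CPM in AireKO and at 41.2, 25.4 and 30.8 CPM in AireEEDdKO. Its groups did not overlap but the difference missed the threshold (log2 0.76, SE 0.29, edgeR adjusted p = 0.0781). Of this family, only Zfhx4 was both nearly silent in neonatal mTEChi AireKO and abundant in AireEEDdKO. With EED present it averaged 32.9 CPM in adult WT mTEClo.

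Of the EBF genes, Ebf4 had 4.11, 4.13 and 4.52 CPM in AireKO and 20.6, 15.0 and 12.8 CPM in AireEEDdKO. It rose 3.67-fold (log2 1.88, SE 0.33, edgeR adjusted p = 0.000313). Ebf1, the most abundant EBF gene in all neonatal mTEChi groups also per kb of exon, was at 86.3, 75.1 and 79.1 CPM in AireKO and at 157, 149 and 182 CPM in AireEEDdKO. Ebf1 rose 2.03-fold (log2 1.02, SE 0.14, edgeR adjusted p = 2.31e-05), just past the 2-fold limit, and without AireKO replicate 2 or AireEEDdKO replicate 3 it was just under it, with a log2 change of 0.93 at the lowest.

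Ebf3 was low in both groups, with 3.43, 2.75 and 3.39 CPM in AireKO and 14.7, 6.93 and 8.66 CPM in AireEEDdKO. It rose 3.04-fold (log2 1.60, SE 0.55, edgeR adjusted p = 0.0477), with counts of 4 to 12 against 12 to 27 per library. The call was lost when the replicate number was added as a block (adjusted p = 0.0583), and with each library but AireEEDdKO replicate 2 left out in turn (5 of 6), where the adjusted p reached 0.189. Ebf2 was at 8.22, 2.75 and 3.67 CPM in AireKO and 7.65, 1.16 and 2.25 CPM in AireEEDdKO. These groups overlapped and no difference was detectable at this depth (log2 -0.42, SE 0.58, edgeR adjusted p = 0.686).

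**Figure D1:**
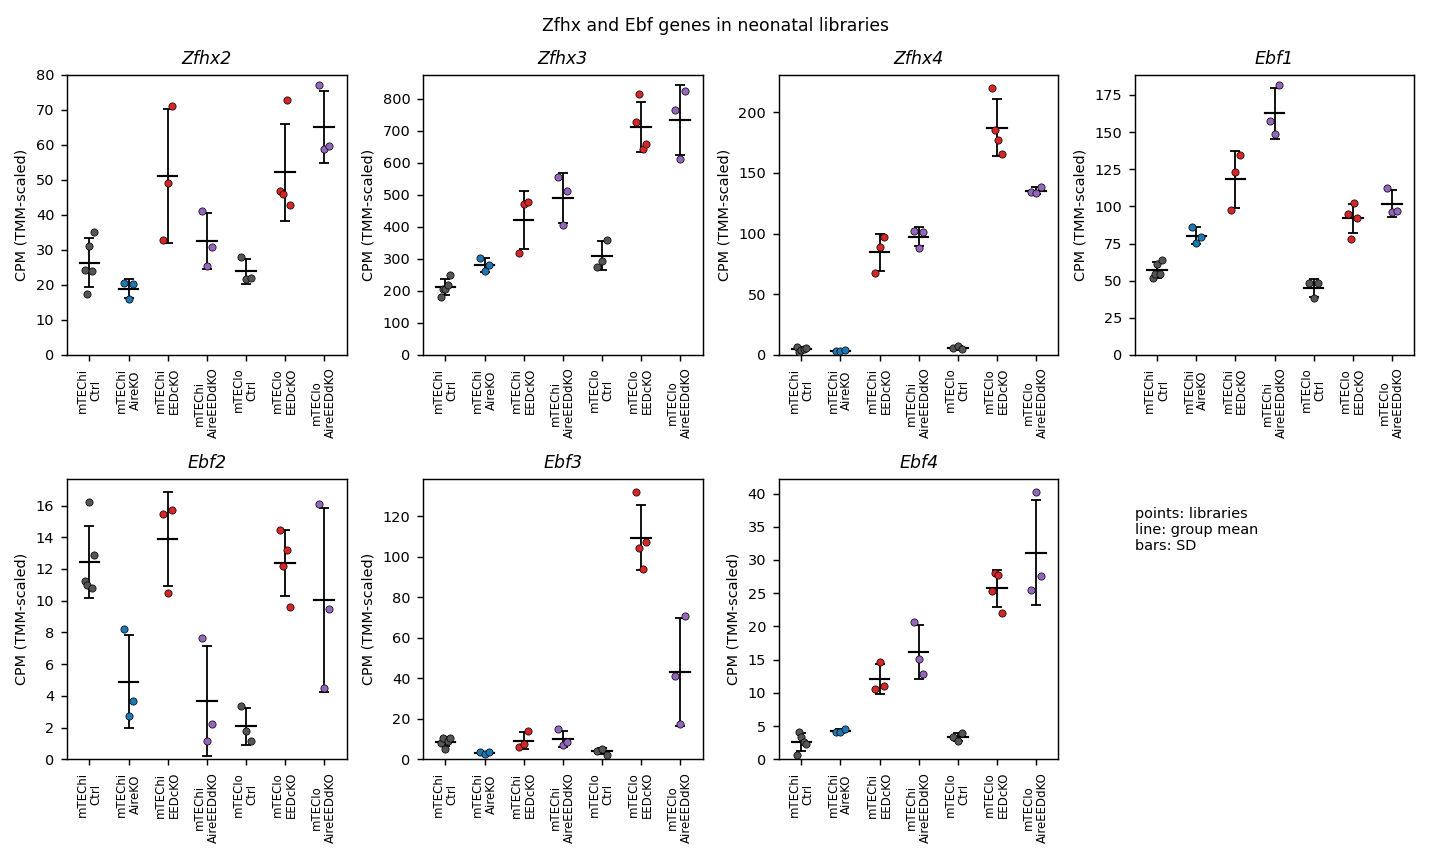
CPM of each member in every neonatal library (y axis, linear from 0) by group (x axis), with group means and SD. Zfhx4 lies between 67.5 and 220 CPM in the groups without EED and between 2.31 and 7.37 CPM in the others, while Ebf3 is high in the mTEClo groups without EED alone.

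The comparisons of EEDcKO with Ctrl chose the members, so their values are a description without a test. In mTEChi, Zfhx4 was at 6.75, 2.31, 3.85, 4.75 and 6.09 CPM in Ctrl and 67.5, 89.0 and 97.2 CPM in EEDcKO, a 17.5-fold difference (log2 4.13, SE 0.18). Ebf4 was 4.63-fold higher in EEDcKO (SE 0.28 on the log2 scale), Ebf1 2.07-fold, Zfhx3 1.99-fold and Zfhx2 1.92-fold. Ebf3 and Ebf2 had similar levels in both groups, with log2 differences of 0.16 (SE 0.38) and 0.13 (SE 0.37). The groups did not overlap for 4 of the 7 members, all higher in EEDcKO, and 16.8% of all genes were higher without overlap.

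In mTEClo all 7 members were higher in EEDcKO, at least 2-fold and without overlap with Ctrl. In this comparison 18.7% of all genes were higher without overlap. Zfhx4 was at 5.74, 7.37 and 4.50 CPM in Ctrl and at 220, 186, 177 and 166 CPM in EEDcKO, a 30.9-fold difference (log2 4.95, SE 0.21). Ebf3 was at 4.05, 5.26 and 2.25 CPM in Ctrl and at 132, 105, 93.8 and 107 CPM in EEDcKO, a 26.9-fold difference (log2 4.75, SE 0.42). These were the values by which the pair stood out. Ebf4 followed with log2 2.94 (SE 0.30) and Ebf2 with log2 2.47 (SE 0.50), while Zfhx3, Zfhx2 and Ebf1 differed by 2.30-, 2.18- and 2.05-fold.

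AireEEDdKO mTEClo libraries were compared with the same Ctrl libraries, and all 7 members were higher by at least 2-fold without overlap (26.2% of all genes were higher without overlap). These AireEEDdKO mice were 4 to 6 days old and those of Ctrl 1 to 3 days, so age and genotype cannot be told apart here. Zfhx4 was at 134, 133 and 138 CPM, 22.4-fold over Ctrl (log2 4.48, SE 0.21). Ebf3 was at 41.3, 17.4 and 70.6 CPM, 10.6-fold over Ctrl (log2 3.40, SE 0.43). The 3 AireEEDdKO libraries thus agreed closely on Zfhx4 and varied about their Ebf3 mean of 43.1 CPM with an SD of 26.6. Ebf4 was at 25.6, 40.2 and 27.5 CPM, 9.31-fold over Ctrl. Both comparisons share their Ctrl libraries and are not independent.

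**Figure D2:**
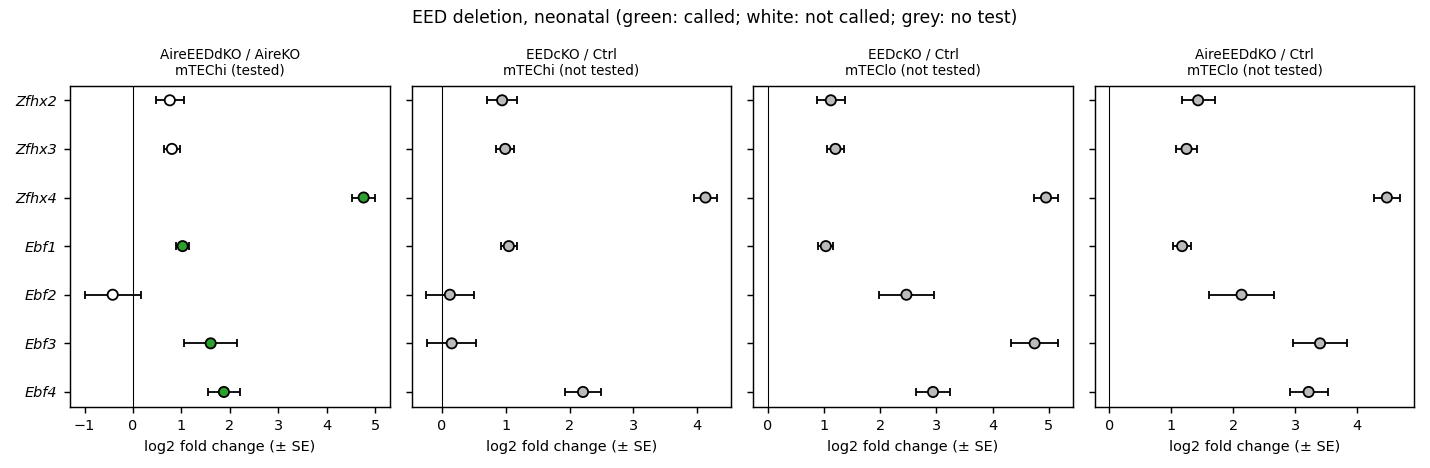
Log2 fold change with SE (x axis, a different range in each panel) of each member (y axis) for 4 comparisons of EED-deleted with EED-sufficient neonatal libraries, green where called, white where not and grey where no test was made. Zfhx4, chosen for its rise on EED loss, lies at 4.13 to 4.95 in the 4 panels. Ebf3, chosen likewise, runs from 0.16 in mTEChi to 4.75 in mTEClo.

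Of 17 annotated genes that overlap the members, several antisense genes had counts mainly where their member was high. Counts ignored strand, so reads of these genes cannot be told from unspliced RNA of the member. Gm10578, an antisense gene inside Ebf3 that shares no exon base with it, averaged 13.8 CPM in mTEClo EEDcKO, 4.54 in mTEClo AireEEDdKO and 0.113 in mTEClo Ctrl. Gm45278, which overlaps 355 exon bases of Ebf3, averaged 10.4, 4.20 and 0.225 CPM in the same groups. The antisense gene 2700069I18Rik, which overlaps the first bases of the Zfhx4 gene span, had 1 to 6 counts in each of the 13 EED-deleted neonatal libraries and 0 counts in all 11 others. These few counts were not tested. Zfhx2os and Gm20687, the antisense genes of Zfhx2, reached at most 0.825 and 0.578 CPM in any library. Gm12158, antisense in an intron of Ebf1, was the only overlapping gene of 6 tested to pass in mTEChi AireEEDdKO against AireKO, rising from a mean of 3.72 to 10.2 CPM (log2 1.34, SE 0.46, edgeR adjusted p = 0.0455). The highest level was that of Gm38042, a same-strand transcript within a Zfhx3 intron, with up to 80.1 CPM.

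Genes related to the members by structure or by known interaction were counted in the mTEChi comparison of AireEEDdKO with AireKO. There 6.69% of all genes were called higher and 2.78% lower. Among 11 zinc finger homeobox relatives, 4 rose and none fell, with a median log2 change of 0.29 against 0.034 over all genes. These were Zeb1, a repressor of epithelial genes, with log2 2.17 (SE 0.38), Tshz2 with 1.91 (SE 0.43), Zeb2 with 1.51 (SE 0.24) and Tshz3 with 1.24 (SE 0.26), all called. Of the 14 EBF partners and targets 12 were tested, and 4 rose and none fell (median log2 change 0.36). Zfp423, a zinc finger protein that binds EBF proteins, went from a mean of 13.8 to 98.6 CPM (log2 2.86, SE 0.22, edgeR adjusted p = 1.26e-08). Pax5, the B lineage factor downstream of Ebf1, rose with log2 1.40 (SE 0.43), Prdm16, a partner of brown fat genes, with 1.23 (SE 0.28) and Pparg, the fat cell receptor, with 1.05 (SE 0.33). Of 8 ZFHX partners and targets 7 were tested and 0 were called by edgeR, 1 at an unadjusted p under 0.05, and 0 by DESeq2 (median log2 change 0.16), and Cdkn1a, the cell cycle inhibitor, was at an adjusted p of 0.00857 and under 2-fold (log2 0.86, SE 0.22).

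Some markers of other cell types, mainly mesenchyme and neuronal ones, were higher in the same libraries as the members. Of 8 mesenchyme markers, 3 rose in mTEChi AireEEDdKO against AireKO (Pdgfra, Col1a2 and Col3a1). Their summed level was 422 to 735 CPM in AireEEDdKO against 250 to 351 in AireKO, and 498 to 785 in EEDcKO against 252 to 334 in Ctrl. In mTEClo it was 582 to 843 CPM in EEDcKO and 555 to 1095 in AireEEDdKO against 136 to 145 in Ctrl. Pdgfra had 0 counts in all 3 mTEChi AireKO libraries, and Dcn and Lum did not pass the test in that comparison. The sum of the 8 neuronal and neuroendocrine markers was 199 to 246 CPM in mTEChi AireEEDdKO against 69.5 to 80.2 in AireKO, with 3 called higher (Stmn2, Tubb3 and Dcx) and 1 lower (Snap25). Of 7 B cell markers only Pax5 rose there, and Cd79a averaged 1.76 CPM in AireEEDdKO and 1.67 in AireKO and Ms4a1 0.795 and 1.44. The sum of the 5 cortical epithelial markers in mTEClo was 390 to 876 CPM in EEDcKO against 1694 to 2581 in Ctrl. In mTEChi AireEEDdKO against AireKO, 1 cortical marker rose (Enpep), 1 of the 10 mTEC markers rose (Ccl21a) and 1 fell (Aire). Of the thymocyte, endothelial and myeloid markers, 7, 5 and 6 were tested, of which edgeR and DESeq2 called 0 and 1, 0 and 0 had an unadjusted p under 0.05. The part of such cells in the levels of the members was not tested.

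**Figure D3:**
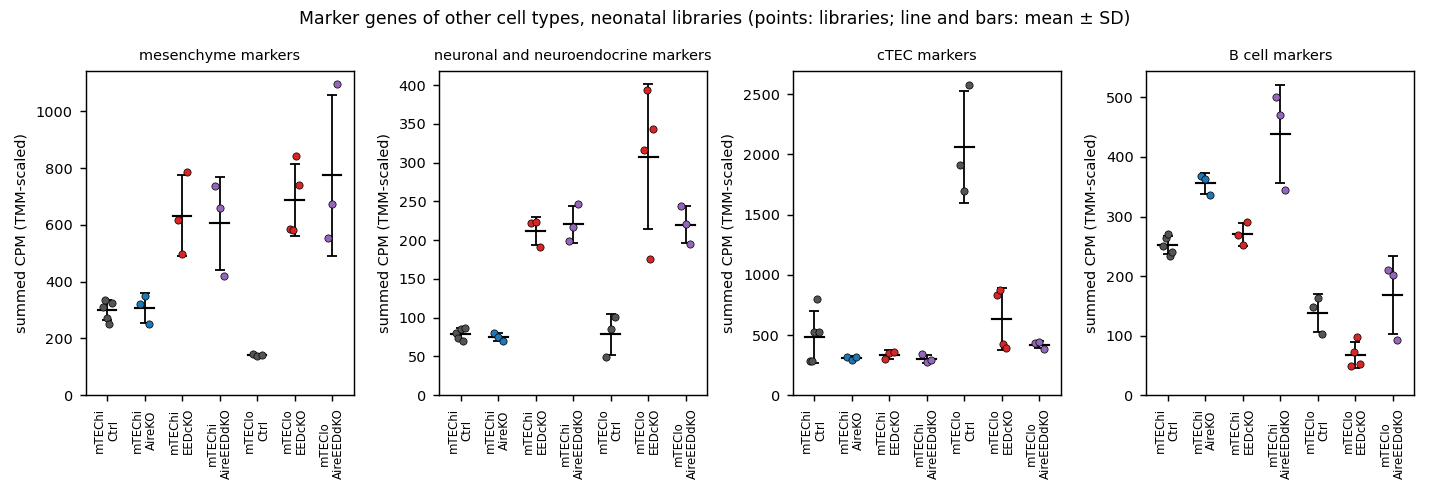
Summed CPM of 4 marker lists in every neonatal library (y axis, linear from 0) by group (x axis), with group means and SD. Mesenchyme and neuronal sums are higher in the EED-deleted groups, and the cortical epithelial sum is highest in mTEClo Ctrl, at 1694 to 2581 CPM.

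Loss of Aire was compared in neonatal mTEChi with EED present and with EED deleted. With EED present the comparison was AireKO against Ctrl, whose libraries had served in choosing the members. Of the 5 members other than Zfhx4 and Ebf3, 1 was called, Ebf2, which fell, where 12.8% of all genes were called lower. At the adjusted p alone 3 of these 5 passed, against 28.8% of all genes. Ebf2 was at 10.8 to 16.2 CPM (median 11.3) in the 5 Ctrl libraries and 8.22, 2.75 and 3.67 in AireKO. It fell by 1.42 on the log2 scale (SE 0.45, edgeR adjusted p = 0.0216), and without AireKO replicate 2 or replicate 3 it was no longer called (adjusted p up to 0.131). Ebf3 was at 4.95 to 10.4 CPM in Ctrl and 2.75 to 3.43 in AireKO, a log2 difference of -1.38 (SE 0.50). This is given without a test, since the Ctrl level of Ebf3 had entered the choice. The difference ran from -1.61 to -1.28 with 1 library left out in turn, and was -1.22 with age as a term. Ebf1 and Zfhx3 were higher in AireKO without overlap and past the adjusted p, but under 2-fold, with log2 0.48 (SE 0.13) and 0.40 (SE 0.14). Zfhx4, at 3.51 CPM against 4.75, had a log2 difference of -0.44 (SE 0.29), given without a test since its Ctrl level had entered the choice. In the same comparison 4 of 8 mesenchyme markers fell and 2 rose, and 4 of 6 myeloid and 2 of 7 B cell markers fell. Pdgfra had 0 counts in all 3 AireKO libraries, and the mesenchyme sums given above overlapped. The part of other cells in the lower levels of Ebf2 and Ebf3 was not tested.

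With EED deleted (AireEEDdKO against EEDcKO), Ebf2 was the only member to pass in mTEChi, where 8.36% of all genes were called lower. It was at 15.5, 10.5 and 15.7 CPM in EEDcKO and 7.65, 1.16 and 2.25 in AireEEDdKO, and fell by 1.96 on the log2 scale (SE 0.50, edgeR adjusted p = 0.00719). Ebf1 was higher by log2 0.45 and made 2 members past the adjusted p alone, against 22.5% of all genes. Of the mesenchyme markers 2 rose and 1 fell here. The mTEChi EEDcKO mice were 1 to 6 days old, with 0 of 3 libraries from males alone. Those of AireEEDdKO were 4 to 6 days old, with 2 of 3 from males alone, so age and sex moved in part with genotype. Zfhx4 and Ebf3 are described without a test in comparisons with EEDcKO, since their levels in these libraries chose them. Zfhx4 was at 97.4 CPM in mTEChi AireEEDdKO against 84.6 in EEDcKO (log2 0.19, SE 0.16). In mTEClo Ebf3 averaged 43.1 CPM in AireEEDdKO against 109 in EEDcKO (log2 -1.34, SE 0.31), and the difference ran from -1.86 to -0.96 with 1 library left out in turn. Zfhx4 was lower in mTEClo AireEEDdKO without overlap (log2 -0.47, SE 0.15). Of the other 5 members 0 were called in mTEClo by edgeR or DESeq2 and 0 had an unadjusted p under 0.05, where 1.85% of all genes were called lower and 8.02% passed the adjusted p alone.

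Between mTEChi and mTEClo, Ebf2 and Ebf3 leaned to mTEChi and the ZFHX genes to mTEClo in adult WT, a comparison with no part in choosing the members. There 2 members were called higher in mTEChi and 2 lower, where 23.7% and 12.4% of all genes were. Ebf2 had a median of 10.7 CPM (9.29 to 17.9) in mTEChi and 1.33 CPM (0.636 to 4.02) in mTEClo, and was 7.07-fold higher in mTEChi (log2 2.82, SE 0.26, edgeR adjusted p = 1.15e-10). Ebf3 had a median of 9.29 CPM (6.34 to 17.9) in mTEChi and 2.22 CPM (0.336 to 4.02) in mTEClo, a 4.33-fold difference (log2 2.12, SE 0.31, edgeR adjusted p = 7.02e-07). Both showed no overlap between the fractions. Markers of other cells were higher in mTEChi as well, with 5 of 6 tested B cell, 5 of 6 thymocyte, 5 of 5 myeloid, 3 of 5 endothelial and 3 of 7 mesenchyme genes called higher. The mesenchyme sum was 199 to 371 CPM in mTEChi against 64.2 to 98.0 in mTEClo, and the B cell sum 262 to 302 against 70.5 to 88.8. Of the neuronal and neuroendocrine markers 4 of 7 were lower in mTEChi and 1 higher. Their part in the differences of the members was not tested.

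Zfhx4 ran the other way in adult WT, with a median of 8.40 CPM (5.00 to 17.5) in mTEChi and 32.1 CPM (28.1 to 40.2) in mTEClo. It was lower in mTEChi by 1.71 on the log2 scale (SE 0.21, edgeR adjusted p = 3.32e-08). Zfhx3 had a median of 201 CPM (169 to 223) in mTEChi and 465 CPM (407 to 530) in mTEClo, lower in mTEChi by 1.24 (SE 0.07, edgeR adjusted p = 3.96e-15). Zfhx2 and Ebf4 were each lower in mTEChi by 0.85, past the adjusted p but under 2-fold. Ebf1 was at 33.8 CPM in mTEChi and 34.7 in mTEClo (log2 -0.05, SE 0.13, edgeR adjusted p = 0.751).

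Neonatal Ctrl shared the Ebf2 difference, with 10.8 to 16.2 CPM in mTEChi and 3.38, 1.75 and 1.13 CPM in mTEClo. Ebf2 was 5.61-fold higher in mTEChi (log2 2.49, SE 0.49, edgeR adjusted p = 0.000525) and was the only member called, where 13.8% of all genes were called higher. The adjusted p alone was passed by 3 members and 37.4% of all genes, the others being Zfhx3 (log2 -0.54, SE 0.14) and Ebf1 (log2 0.35, SE 0.13). Ebf3 was at 8.55 CPM in mTEChi and 3.85 in mTEClo (log2 1.07, SE 0.46) and Zfhx4 at 4.75 and 5.87 CPM (log2 -0.31, SE 0.25), both without a test since their Ctrl levels had entered the choice. Here 5 of 7 B cell and 4 of 8 mesenchyme markers were higher in mTEChi and 4 of 5 cortical markers lower, and their part was not tested. Neonatal and adult values come from tables scaled separately and were not tested against each other.

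In EED-deleted neonatal mTECs Ebf3 was lower in mTEChi than in mTEClo. In EEDcKO, Ebf3 averaged 9.23 CPM in mTEChi against 109 in mTEClo (log2 -3.52, SE 0.37) and Zfhx4 84.6 against 187 CPM (log2 -1.13, SE 0.15), again as a description since these libraries chose the pair. Of the other 5 members Ebf4 was called lower in mTEChi (log2 -1.06, SE 0.25, edgeR adjusted p = 0.00169), where 7.67% of all genes were, and was just under 2-fold in DESeq2 (log2 -0.99). Past the adjusted p alone were 3 of the 5 and 38% of all genes. Ebf2 was at 13.9 CPM in mTEChi and 12.4 in mTEClo. In AireEEDdKO, Ebf3 was lower in mTEChi by 2.11 (SE 0.39, edgeR adjusted p = 0.000241), and Ebf2 by 1.48 (SE 0.50, adjusted p = 0.0225) and Zfhx2 by 1.00 (SE 0.26, adjusted p = 0.00433) were called as well, where 10.6% of all genes were called lower. The Ebf2 groups overlapped, and Ebf2 and Zfhx2 each lost the call without mTEChi replicate 2 or 3 or mTEClo replicate 1 (adjusted p up to 0.131 for Ebf2, and under 2-fold with a log2 change of -0.87 at the weakest for Zfhx2). When only these groups were fitted, Ebf2 was at an adjusted p of 0.127. All 7 members passed the adjusted p alone, where 39.2% of all genes did, and of these Ebf1 was higher in mTEChi (log2 0.68, SE 0.13). Of the mesenchyme markers 4 of 8 were lower in mTEChi in each genotype, with 2 higher in EEDcKO and 1 in AireEEDdKO, and of the B cell markers 6 and 4 of 7 were higher, and their part was not tested. Whether the differences of the members differed between genotypes was not tested.

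**Figure D4:**
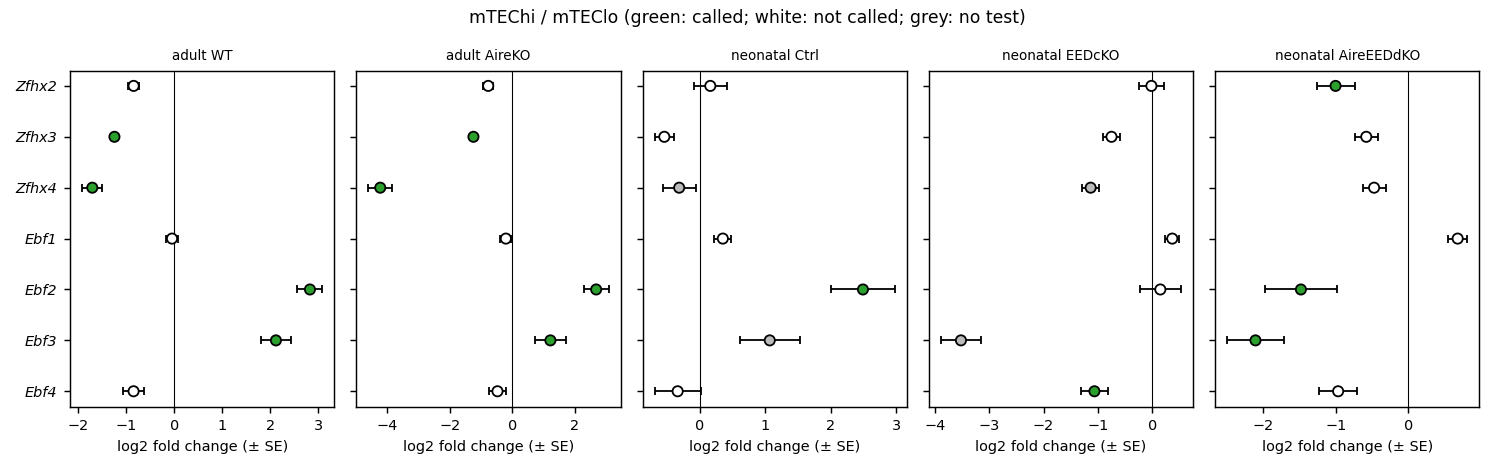
Log2 fold change of mTEChi over mTEClo with SE (x axis, a different range in each panel) of each member (y axis) in 5 genotypes, green where called, white where not and grey where no test is given. Ebf3 lies at 2.12 in adult WT and 1.07 in neonatal Ctrl, and at -3.52 and -2.11 in the EED-deleted groups.

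Adult Aire loss was marked by a fall of Zfhx4 in mTEChi. Zfhx4 was at 1.76, 1.64, 0.685 and 3.76 CPM in the 4 AireKO libraries, on 2 to 9 counts each, and at 5.00 to 17.5 CPM (median 8.40) in WT. It fell by 2.38 on the log2 scale (SE 0.41, edgeR adjusted p = 2.02e-05), without overlap. Ebf3 fell by 1.03 (SE 0.35, edgeR adjusted p = 0.0148), from a median of 9.29 to 4.27 CPM with overlapping groups, and lost the call with 3 of the 11 libraries left out in turn (WT replicate 7, AireKO replicates 1 and 2, adjusted p up to 0.056). These were the 2 members called lower, where 17.8% of all genes were, and 0 were called higher, where 5.63% of all genes were. At the adjusted p alone 4 passed, against 55.3% of all genes. Ebf4 was higher in AireKO by 0.91 (SE 0.25, edgeR adjusted p = 0.00317) and Zfhx3 by 0.34 (SE 0.08, adjusted p = 0.0011), both without overlap and under 2-fold. A term for the library kind, that is for the absence of mitochondrial counts, gave -3.46 for Zfhx4 (adjusted p = 1.83e-06) and -1.67 for Ebf3 (adjusted p = 0.172), with the term estimated from mTEClo AireKO alone. In that group library kind went with age in weeks and with depth, so the term cannot be assigned to library kind. With age in weeks as a term Ebf3 was at an adjusted p of 0.0524.

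**Figure D5:**
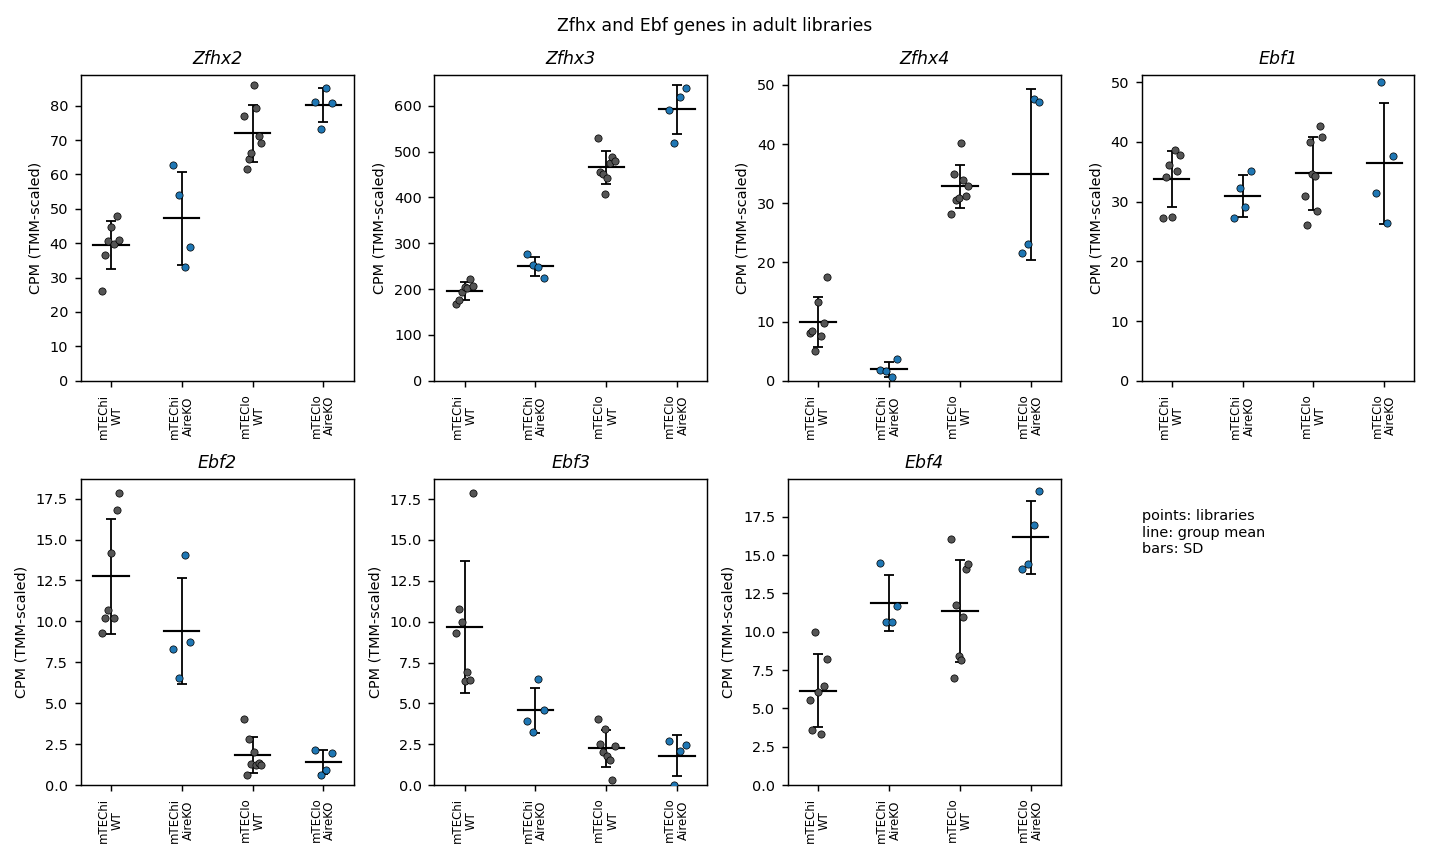
CPM of each member in every adult library (y axis, linear from 0) by group (x axis), with group means and SD. Zfhx4 is lowest in mTEChi AireKO, at 0.685 to 3.76 CPM, and its mTEClo AireKO libraries fall into pairs of 21.7 and 23.2 and of 47.1 and 47.7 CPM.

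In the same mTEChi libraries 4 of 7 tested mesenchyme markers fell and 1 rose (Dcn), and Zfp423 went from a mean of 35.5 to 5.40 CPM (log2 -2.73, SE 0.24). The mesenchyme sum was 194 to 213 CPM in AireKO and 199 to 371 in WT. Of the zinc finger homeobox relatives 1 of 11 fell (Tshz2) and of the EBF partners and targets 3 of 12 rose and 3 fell, with 3 of 8 ZFHX partners and targets lower. Over all genes 17.8% were called lower in this comparison and 5.63% higher. Of the markers, 5 of 6 thymocyte, 3 of 7 neuronal and neuroendocrine, 2 of 5 endothelial, 2 of 5 cortical and 1 of 10 mTEC genes fell, while 2 of 6 B cell genes fell and 1 rose and 2 of 5 myeloid genes fell and 1 rose. The part of other cells in the Zfhx4 value was not tested.

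In adult mTEClo no member was called between AireKO and WT by edgeR, where 8.3% of all genes were, and 1 passed the adjusted p alone, where 24.9% did (Zfhx3, log2 0.35, SE 0.08, adjusted p = 0.00209). DESeq2 called 0 as well, and 2 members had an unadjusted p under 0.05. Zfhx4 was at 21.7 and 23.2 CPM in the AireKO libraries with mitochondrial counts and at 47.7 and 47.1 in those without, on either side of the 28.1 to 40.2 CPM of WT. The former were also from mice of 5 weeks, with 1639231 and 1883769 counts in total. The latter were from mice of 6 weeks, with 3272356 and 3938588 counts, so library kind, age and depth cannot be told apart here. Among libraries with mitochondrial counts the log2 difference was -0.54 (edgeR adjusted p = 0.13), and over all libraries 0.14 (SE 0.21, adjusted p = 0.67). Ebf3 had 0 counts in AireKO replicate 2, which allows up to 1.88 CPM, and 2.08 to 2.71 CPM in the other 3.

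The Aire effect on Zfhx4 differed between the fractions. The interaction was -2.52 on the log2 scale (SE 0.47, edgeR adjusted p = 0.000203), and Zfhx4 was the only member called, where 13.7% of all genes were. Zfhx4 was also the member with the widest gap between fractions in adult AireKO, at 1.96 CPM in mTEChi against 34.9 in mTEClo (log2 -4.22, SE 0.38, edgeR adjusted p = 1.14e-10). It was -4.66 among the libraries without mitochondrial counts (adjusted p = 1.19e-07). In that genotype Ebf2 kept its higher level in mTEChi (log2 2.67, SE 0.40, adjusted p = 1.47e-06) and Zfhx3 its lower one (log2 -1.25, SE 0.10, adjusted p = 4.68e-12), and 2 members were called higher and 2 lower, where 18.5% and 16.7% of all genes were. Ebf3 was called at log2 1.21 (SE 0.49, adjusted p = 0.037), but not with the replicate block (adjusted p = 0.0525), a term for library kind (log2 1.02, adjusted p = 0.116), libraries without mitochondrial counts alone (log2 0.97, adjusted p = 0.0693) or library size alone as scaling (adjusted p = 0.0642), nor without mTEClo replicate 2 or 3 or mTEChi replicate 3 or 4 (adjusted p up to 0.157).

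Per kb of exon, Zfhx3 was the most abundant member in every group, from 9.34 ± 0.894 CPM per kb (SD, n = 7) in adult WT mTEChi to 35.0 ± 5.20 (n = 3) in neonatal AireEEDdKO mTEClo. Zfhx4 ranged from 0.124 ± 0.0821 CPM per kb (n = 4) in adult AireKO mTEChi to 11.9 ± 1.49 (n = 4) in neonatal EEDcKO mTEClo. In the latter group Ebf3 had the same mean, 11.9 ± 1.75 CPM per kb (n = 4), followed by Ebf1 at 9.42 ± 1.02 and Ebf4 at 7.95 ± 0.868. Ebf2 did not exceed 2.01 ± 0.426 CPM per kb (neonatal EEDcKO mTEChi, n = 3) in any group. For Zfhx4 the neonatal order ran from EEDcKO mTEClo through AireEEDdKO mTEClo to AireEEDdKO and EEDcKO mTEChi, of which only the last 2 overlapped, and then to the EED-sufficient groups, each of which overlapped the next. For Ebf3 EEDcKO mTEClo stood above AireEEDdKO mTEClo and that above all others, each without overlap, and the 5 other groups overlapped in turn. For Ebf1 AireEEDdKO mTEChi stood first without overlap, and Ctrl mTEClo last.

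The 3 tested genes most like each member were found by the correlation of log2 CPM over the 24 neonatal libraries, which share genotype groups and are not independent points. For Zfhx4 these were Prdm11, Sgcb and Speg (Pearson r of 0.958, 0.957 and 0.957), and for Ebf3 they were Il17rd, Gm10578 and Fibin (0.950, 0.944 and 0.928). Gm10578 lies inside Ebf3 and counts ignored strand, so its reads cannot be told from unspliced Ebf3 RNA. Zfhx3 was nearest to Lamb2, Hspg2 and Ldb1 (0.983, 0.965 and 0.959), and Lamb2 was also among the 3 nearest to Ebf4, after Nsmf and before Mgat4b (0.942, 0.937 and 0.936). Ebf1 was nearest to Dlx5, Wnt11 and Cspg4 (0.922, 0.920 and 0.918) and Zfhx2 had Sptb and Mycl among its 3 nearest (0.932 and 0.916). Ebf2 had the weakest likeness, with Tiam2, Tgm2 and Prickle2 at 0.873, 0.806 and 0.793.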

How the data were processed

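The authors trimmed reads with fastp 0.20.0, aligned them with STAR 2.7.3a to mm10/GRCm38 with an Ensembl annotation whose release is not given in the sources used here, removed alignments of mapping quality under 5 with SAMtools 1.9 and duplicates with Picard 2.21.1, and counted reads per gene without strand using HTSeq 0.11.2. The deposited values are these raw counts per gene, in 1 table of 24 neonatal and 1 of 23 adult libraries, which were normalized and tested separately. The removal of duplicates caps the counts of highly expressed genes.

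Ensembl identifiers were matched to GRCm38 symbols, which 99.8% of adult and 99.4% of neonatal rows had. The 7 members and all gene lists were chosen with earlier results of these data known. Each table was fitted over all its groups with edgeR 4.0.16 in R 4.3.3 (TMM scaling, filterByExpr, quasi-likelihood F test, Benjamini-Hochberg adjustment over all genes tested, two-sided). The SE of a log2 fold change was its size over the square root of F. CPM in the text are means ± SD over libraries. Adjusted p-values of the comparisons of EEDcKO with Ctrl and of AireEEDdKO with Ctrl were not used, since the former chose the members and the latter shares its Ctrl libraries. Zfhx4 and Ebf3, whose levels made the choice, are also described without a test in some other comparisons. These are EEDcKO with AireEEDdKO, neonatal AireKO with Ctrl, and the fractions of Ctrl and EEDcKO. DESeq2 1.42.0, other scaling and filters, terms for replicate, age and library kind, male libraries alone, and leaving out each library in turn were alternatives. The fit was tested on simulated data. No 2 libraries of a group agreed within sampling noise, with chi-square over degrees of freedom of 1.23 to 12.3 in 92 pairs. Replicate numbers counted as pairs where every same-numbered pair correlated above 0.1 in its deviations from the group means, which held for AireEEDdKO against AireKO (r 0.108 to 0.213), for mTEChi against mTEClo in AireEEDdKO (0.291 to 0.416) and in adult AireKO (0.139 to 0.222).

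Named were all members, the 3 nearest genes of each, annotated genes overlapping them and, from each list, up to 5 genes past the threshold in AireEEDdKO against AireKO, except that 1 of the nearest genes is not reported here. Genes named from the adult comparison of AireKO with WT and the genes named for missing a threshold were chosen after their values were seen. Total counts per library set the precision, and limits behind a count of 0 cover counting error only.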

Additional observations from a re-analysis of the deposited data

Results flagged for a closer look

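In 2 of 42 combinations of a member with a group of 4 to 10 libraries, 1 library stood apart from the rest by Dixon's criterion, a number near the 1 in 20 that chance gives. Zfhx2 was at 72.7 CPM in neonatal mTEClo EEDcKO replicate 3, and the next highest of the 4 libraries was at 46.8 CPM. Ebf3 was at 17.9 CPM in adult mTEChi WT replicate 7, and the next highest of the 7 was at 10.8 CPM. Without that library the fall of Ebf3 in adult mTEChi AireKO had a log2 change of -0.81 and was no longer called.

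The difference of Zfhx4 between AireKO and WT was not the same in the adult fractions, where genotype went with library kind in mTEChi. The interaction was -2.52 on the log2 scale (SE 0.47, edgeR adjusted p = 0.000203). Zfhx4 was lower in all 4 mTEChi AireKO libraries than in all 7 of WT, while in mTEClo 2 of the 4 AireKO libraries lay below and 2 above all 8 of WT. With a term for library kind the interaction was -2.90, but in mTEClo AireKO library kind went with age and depth.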

How the results depend on the processing

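No called value changed sign. Of 1842 member values under alternatives 47 changed sign, in 14 results that were called neither before nor after, among them Zfhx4 in adult mTEClo AireKO against WT (0.14 to -0.56 with a term for library kind), Ebf1 in adult mTEChi (-0.14 to 0.19 with that term) and Ebf2 in AireEEDdKO against AireKO (-0.42 to 0.06 without 1 library). Counts of called members stayed within 1.5 times in 202 comparisons with an alternative and moved further in 35. Without the 2-fold limit they were 4 in adult mTEChi AireKO against WT and 1 in mTEClo, 4 in neonatal AireKO against Ctrl, 2 in AireEEDdKO against EEDcKO in either fraction, and, for mTEChi against mTEClo, 3 in Ctrl, 5 in EEDcKO and 7 in AireEEDdKO. With age in weeks or a term for library kind the count in adult mTEChi AireKO against WT was 1 in place of 2. In neonatal AireKO against Ctrl it was 1 with the replicate block or with age in days. When only the groups compared were fitted it was 0 in mTEClo AireEEDdKO against EEDcKO, 2 for mTEChi against mTEClo in Ctrl and 1 in AireEEDdKO. That Ctrl count was 2 also without the filter on low counts, with age in days and in DESeq2. These counts include Zfhx4 and Ebf3 also where they are described without a test. The cause of these shifts was not tested.

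With 1 library left out in turn, counts ran from 1 to 3 in adult mTEChi AireKO against WT, from 2 to 4 in AireEEDdKO against AireKO, from 0 to 2 in AireKO against Ctrl, from 0 to 1 in mTEClo AireEEDdKO against EEDcKO, and for mTEChi against mTEClo from 1 to 2 in Ctrl and from 1 to 4 in AireEEDdKO. The replicate block, a term per replicate number shared by all groups of a table, changed no call of a member beyond the 3 of Ebf3. These were in AireEEDdKO against AireKO, in AireKO against Ctrl, where Ebf3 is described without a test, and in adult AireKO between fractions. With male adult libraries alone no call of a member changed. In the other comparisons the numbers did not pair the libraries, with correlations of -0.319 to 0.140. A block shared by all groups is therefore not a paired test of a single comparison.

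Over all genes, calls in mTEClo AireEEDdKO against EEDcKO were 1071, but 40 with only the groups compared and 376 without AireEEDdKO replicate 1, 539 without AireEEDdKO replicate 2 and 705 without EEDcKO replicate 1. They were 1749 in place of 2696 in mTEChi with only the groups compared, 1047 in place of 1602 in adult mTEClo AireKO against WT with age in weeks, and without the filter 8046 in place of 4515 in adult mTEChi AireKO against WT. For adult WT between fractions they were 6964, 13803 without the filter and 10678 in DESeq2. Scaling by library size alone shifted the median of all genes by -0.13 to -0.21 (log2) in 5 comparisons with AireKO or AireEEDdKO libraries. Low counts limit Ebf3 in mTEChi AireKO (4 to 12 counts) and Zfhx4 in adult mTEChi AireKO (2 to 9).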
